A study of Mus musculus with 6 samples.

Results

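Cd36, Acsl1, Acsl4, Acsl5, Fabp5, Cpt1a, Cpt2, Hadha, Hadhb and Acadm encode proteins that carry fatty acids into a cell and through mitochondrial oxidation. These 10 genes were taken by symbol from the 24346 gene symbols measured in each library, and all 10 were found. The genes were selected on their role with the FPKM of these libraries, and with them the IgG1 against IgM difference, already known, so their levels and the differences between groups are given as a description, without a test. RNA was measured in 6 libraries of mouse splenic plasma cells, the antibody-secreting end stage of the B lineage. The cells came from congenically marked B1-8germ donor B cells, which carry a prearranged heavy chain gene that favours recognition of the hapten NP. They were transferred into wild-type C57BL/6J hosts given NP-CGG/alum (NP coupled to chicken gamma globulin, with alum as adjuvant), and 3 IgM and 3 IgG1 plasma cell libraries were made from donor cells sorted at day 7. Donor cells, hosts, immunisation and day were common to both groups, which differed in isotype. The sources used here give neither the ages of the animals nor how many stood behind each library.

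CD36 is a surface receptor that binds long-chain fatty acids and oxidised lipoproteins and helps fatty acids enter the cell. In the spleen it is known on macrophages, platelets, endothelial cells and marginal zone B cells as well. Inside the cell, fatty acid binding proteins such as FABP5 carry the fatty acid and long-chain acyl-CoA synthetases (the ACSL enzymes) activate it by joining it to coenzyme A. CPT1A and CPT2 move the acyl group into mitochondria as carnitine ester, and ACADM and the trifunctional protein, made of HADHA and HADHB, shorten it by beta-oxidation.

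Levels are FPKM, fragments scaled to transcript length and to library depth, as deposited by the authors. Group values are mean ± SD with n = 3 libraries, and a log2 fold change is the difference of log2(FPKM + 1), IgG1 minus IgM, with the standard error (SE) of limma's fit, a scale that understates the change of low genes. Markers of the labelled cell type were abundant, with Jchain between 14200 and 28600, Xbp1 between 5350 and 6860 and Sdc1 between 444 and 614 in the 6 libraries, and the B cell factor gene Pax5 listed at 0 in all of them. Of 10 plasma cell markers 6 were lower in IgG1 and 0 higher at adjusted p under 0.05 with limma, beside 1.76% and 4.26% of the 9087 genes tested. From the value of a single fragment, depth was estimated at 15900000 to 17500000 fragments in the IgM libraries and 15000000 to 15400000 in the IgG1 libraries. The groups also differed in how values followed transcript length, with a Spearman rho between a gene's length and its deviation from its mean of 0.15 to 0.3 in the IgM libraries and of -0.24 to -0.15 in the IgG1 libraries. Differences after removal of the trends with length and GC content are therefore given beside the main ones. IgG1 libraries 2 and 3 stood apart, with 243 and 288 of the genes tested listed at 0 against 27 to 74 in the other 4, although their estimated depth was close to that of IgG1 library 1. Pearson r of log2(FPKM + 1) between libraries was 0.93 to 0.949 within IgG1 and 0.966 to 0.972 within IgM. Across all genes tested the median log2 fold change was -0.05, and 53.7% were negative.

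Cd36 and Acsl1 stood far below their IgM levels in IgG1 plasma cells, while the most abundant genes, Hadhb and Acsl5, were at -0.21 (SE 0.14) and 0.16 (SE 0.13) on the log2 scale. All 10 genes met the filter on low values (FPKM of at least 1 in at least 3 libraries), Acsl1 through its IgM libraries alone, so that its passing already required a difference. Of the 10 genes, 7 were lower in IgG1 on the log2 scale, with a median of -0.45 and a range from -2.41 to 0.46. Cd36 and Acsl1 were the 2 of 10 past an adjusted p of 0.05 in the fit over all genes, where 6.02% of genes tested passed, and the groups did not overlap for 4 of 10, where 27.2% of genes tested did not. These counts describe the choice of genes and nothing was read from them.

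**Figure D1:**
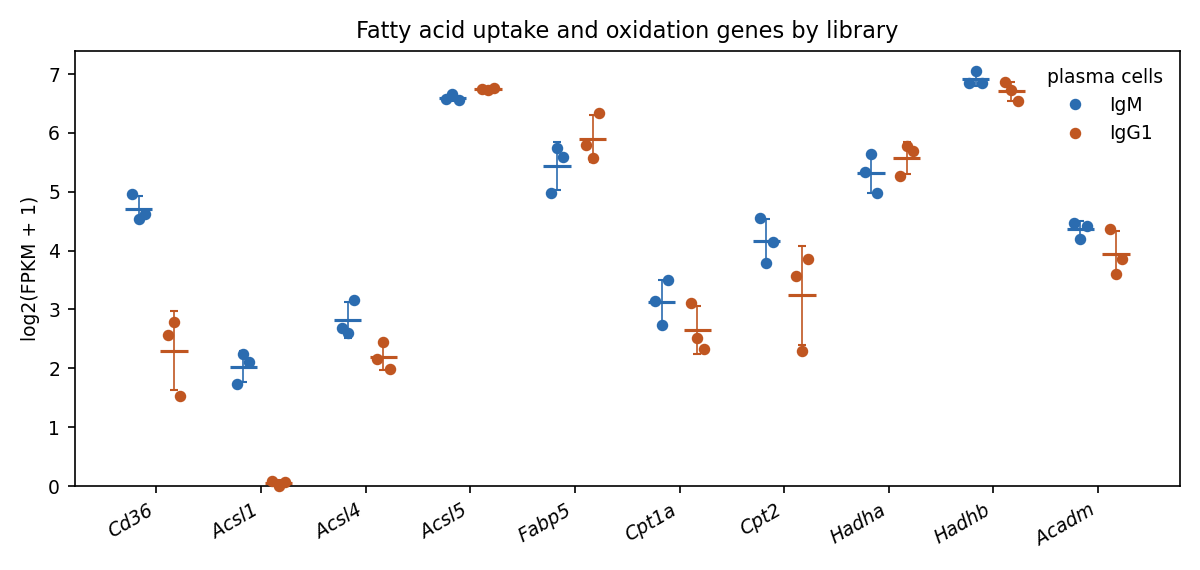
log2(FPKM + 1) of the 10 genes (x axis) in each IgM (blue) and IgG1 (orange) plasma cell library, with the group mean (bar) and SD (whisker), n = 3. The IgM and IgG1 points of Cd36 and Acsl1 are far apart, and those of Acsl5 and Hadhb lie close together.

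Cd36, the receptor gene, was at 30.2, 22.1 and 23.7 FPKM in IgM libraries 1 to 3 and at 4.91, 5.94 and 1.9 in IgG1 libraries 1 to 3. Each IgG1 library was below each IgM library, and IgG1 library 3 was the lowest. The means were 25.3 ± 4.26 in IgM and 4.25 ± 2.1 in IgG1, a 5.96-fold lower level in IgG1 cells. The log2 fold change was -2.41 (SE 0.37), the 23rd by size among the 9087 genes tested, and -2.18 (SE 0.34) with the length and GC trend removed. It lay between -2.66 and -2.03 when any 1 library was left out, the ends being the values without IgG1 library 2 and without IgG1 library 3. At the estimated depth these values stood for about 972 to 1299 fragments in IgM and 79 to 241 in IgG1 libraries. In bulk samples such as these, fewer cells with the transcript and less transcript per cell cannot be told apart. In GRCm38, the assembly that mm10 names, Cd36 lies on chromosome 5 from 17781690 to 17888801 on the minus strand and is annotated as protein-coding.

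Acsl1, which encodes an acyl-CoA synthetase of the mitochondrial outer membrane and the endoplasmic reticulum, was at 2.32, 3.73 and 3.33 FPKM in IgM libraries 1 to 3. In IgG1 libraries 1 and 3 it was at 0.0646 and 0.0483, and in library 2 it was listed at 0. The low IgG1 values corresponded to an estimated 3, 0 and 3 fragments, against 126 to 207 in the IgM libraries. The log2 fold change of -1.98 (SE 0.42) was the 53rd by size, and it depends on the added 1 FPKM, since it was -4.56 with 0.1 added and -0.69 with 5 added. With the length and GC trend removed it was -1.77 (SE 0.42). It was not past the threshold of the fit without IgM library 1, 2 or 3 or IgG1 library 2. The log2 fold changes were then -2.13, -1.87, -1.93 and -1.95, and without IgG1 library 3 it was at -1.98. Acsl1 met the filter through its IgM libraries alone and was chosen with the difference known, so its place against the threshold is no test. Acsl1 lies on chromosome 8 from 46471037 to 46536051 on the plus strand and is protein-coding.

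The sequences before RefSeq starts of these 2 genes are shown because Cd36 and Acsl1 were the pair that stood lower in IgG1 together. Each is the 250 bases before a RefSeq start (GRCm38.p6), 5′ to 3′ on the gene's strand, with capitals marking AGGTCA, the hexamer recognised by many nuclear receptors, and CCAAT, the letters of the CCAAT box, on either strand. The Cd36 window belongs to a start inside the annotated gene, whose minus-strand span begins at 17888801. Acsl1 has 2 such windows, 1 before the annotated gene and 1 inside it.
Cd36 internal start, chr5:17835897-17836146, minus strand: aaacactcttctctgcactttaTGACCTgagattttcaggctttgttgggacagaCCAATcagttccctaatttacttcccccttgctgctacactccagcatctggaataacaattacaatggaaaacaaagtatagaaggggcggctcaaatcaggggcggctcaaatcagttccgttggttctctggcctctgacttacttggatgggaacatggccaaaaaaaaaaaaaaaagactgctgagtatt
Acsl1 upstream start, chr8:46470787-46471036, plus strand: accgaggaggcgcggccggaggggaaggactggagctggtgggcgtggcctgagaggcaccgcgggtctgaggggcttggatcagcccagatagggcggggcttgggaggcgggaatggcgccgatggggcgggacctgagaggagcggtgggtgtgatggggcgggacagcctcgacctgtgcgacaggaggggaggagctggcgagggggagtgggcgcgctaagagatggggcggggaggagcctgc
Acsl1 internal start, chr8:46490716-46490965, plus strand: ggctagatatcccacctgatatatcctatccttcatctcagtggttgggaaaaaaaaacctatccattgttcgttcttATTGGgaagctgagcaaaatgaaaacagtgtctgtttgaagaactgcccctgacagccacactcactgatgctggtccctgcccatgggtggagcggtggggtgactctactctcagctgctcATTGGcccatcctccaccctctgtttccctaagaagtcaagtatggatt

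The Cd36 window held 1 AGGTCA, on the opposite strand, and 1 CCAAT. The upstream Acsl1 window held neither, and the internal one held CCAAT at 2 places on the opposite strand. Among 32851 windows of the same length AGGTCA was found in 14% and CCAAT in 33.8%, so these letters are common. PPAR and RXR receptors bind a direct repeat of AGGTCA with 1 base between the copies. Its exact letters were in none of the 3 windows and in 0.0335% of all windows. Repeats with any mismatch were not searched, and the exact form is rare, so its absence does not show that such a site is lacking. The windows differed in CpG dinucleotides, with 3 in Cd36, 20 in the upstream and 2 in the internal Acsl1 window, against a median of 6 over all windows. The values analysed do not say which start was used in these cells.

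Among the other acyl-CoA synthetases, Acsl5 carried most of the expression in both groups. Acsl5, an isoform of mitochondria and endoplasmic reticulum, was at 94.1, 99.8 and 93.1 FPKM in IgM libraries and at 107, 105 and 108 in IgG1 libraries 1 to 3. The IgG1 values lay just above the IgM values without overlap (log2 fold change 0.16, SE 0.13). The direction depended on scaling, since the log2 fold change was -0.07 when libraries were rescaled to the same sum without Jchain and 0.47 (SE 0.14) with the length and GC trend removed. An exon of Acsl5 overlaps one of Zdhhc6, so its value is uncertain to that extent where strand was not used. Acsl4, the isoform that prefers arachidonic acid, was at 5.44, 5.03 and 7.97 in IgM libraries and at 3.49, 4.43 and 2.95 in IgG1 libraries. Its groups did not overlap either, with IgG1 lower by a log2 fold change of -0.62 (SE 0.38), or -0.23 (SE 0.36) with the trend removed.

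Set side by side as shares of the summed FPKM of Acsl1, Acsl3, Acsl4, Acsl5 and Acsl6, Acsl5 made up 82.4% to 86.8% in IgM and 89% to 92.5% in IgG1 libraries. Acsl1 made up 2.14% to 3.21% in IgM and at most 0.0561% in IgG1. Acsl4 had 4.33% to 7.05% in IgM and 2.51% to 3.75% in IgG1, and Acsl3, an isoform of lipid droplets and endoplasmic reticulum, had 6.03% to 7.58% and 4.45% to 7.26%. Acsl6 was listed at 0 in 5 libraries. The order Acsl5, Acsl3, Acsl4, Acsl1 held for the group means of FPKM in both groups, but Acsl3 (6.54 to 8.56) and Acsl4 (5.03 to 7.97) overlapped in IgM.

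**Figure D2:**
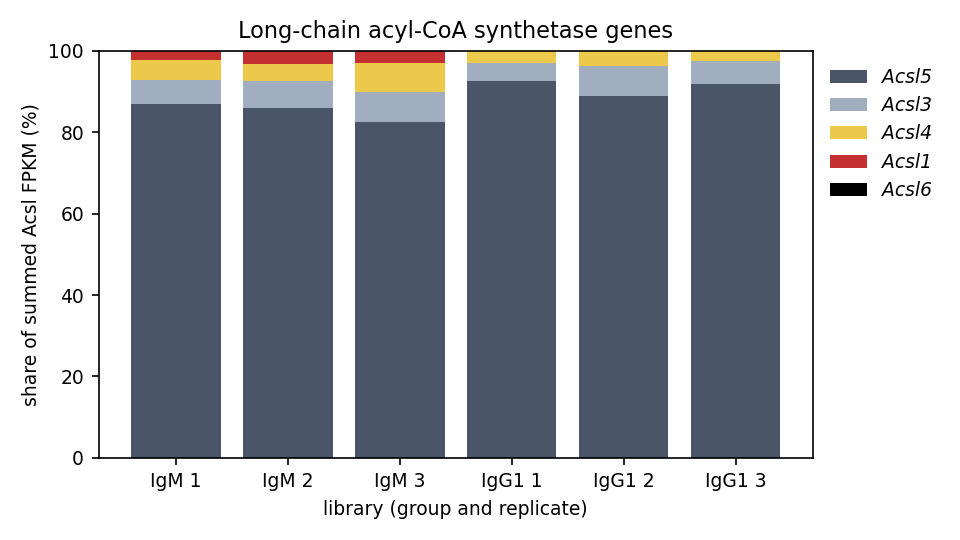
Share of the summed FPKM of 5 long-chain acyl-CoA synthetase genes (y axis, percent) in each library (x axis). Acsl5 (dark grey) fills at least 82.4% of every bar, and the red Acsl1 segment of the IgM bars is not visible in the IgG1 bars, where Acsl1 was at most 0.0561%.

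Fabp5, the fatty acid binding protein of lymphoid and epithelial cells, was at 30.6, 52.6 and 47.2 FPKM in IgM libraries and at 54.5, 46.6 and 80.3 in IgG1 libraries 1 to 3. The groups overlapped, with IgM library 1 lowest and IgG1 library 3 highest. The log2 fold change of 0.46 (SE 0.25) became 0.24 without either of these libraries. In the GENCODE vM21 annotation 5 pseudogenes, among them Fabp5l2, match the Fabp5 transcript at 90% identity or more, and no source used here says how reads that match both were counted.

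Cpt1a and Cpt2, the members that belong to the carnitine shuttle, were lower on average in IgG1 but overlapped. Cpt1a, the outer membrane step at which entry of long-chain fatty acids into mitochondria is controlled, was at 7.86, 5.7 and 10.3 FPKM in IgM libraries and at 7.59, 4.71 and 4 in IgG1 libraries (log2 fold change -0.48, SE 0.38). Cpt2, the inner membrane step, was at 22.4, 12.8 and 16.8 in IgM libraries and at 10.9, 3.88 and 13.5 in IgG1 libraries. IgG1 library 2 was by far the lowest, and the Cpt2 log2 fold change of -0.92 (SE 0.41) was -0.45 without it. With the trend removed Cpt1a was at -0.26 (SE 0.36) and Cpt2 at -0.99 (SE 0.4).

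The 3 beta-oxidation genes overlapped between the groups. Acadm, the medium-chain acyl-CoA dehydrogenase, was at 21.1, 17.3 and 20.5 FPKM in IgM libraries and at 19.6, 11.1 and 13.5 in IgG1 libraries, overlapping in IgG1 library 1 (log2 fold change -0.42, SE 0.27). Hadha, the alpha subunit with hydratase and dehydrogenase activity, was at 39.2, 49 and 30.6 in IgM libraries and at 37.5, 53.6 and 50.9 in IgG1 libraries (0.26, SE 0.22). Hadhb, the beta subunit with thiolase activity, was at 114, 131 and 114 in IgM libraries and at 115, 105 and 92.1 in IgG1 libraries (-0.21, SE 0.14). Both subunit genes overlapped between the groups, and their mean differences went opposite ways.

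Hadha and Hadhb lie head to head on chromosome 5, from 30118304 to 30155162 on the minus strand and from 30155248 to 30184593 on the plus strand, and their proteins form 1 complex. The ratio of Hadhb to Hadha FPKM was 2.91, 2.68 and 3.72 in IgM libraries 1 to 3, and 3.06, 1.95 and 1.81 in those of IgG1. IgG1 library 1 lay among the IgM libraries, and the other IgG1 libraries lay below them. With the trend removed the log2 fold changes were 0.47 (SE 0.23) for Hadha, whose transcript has 4017 nt, and -0.04 (SE 0.13) for Hadhb, with a median of 2045 nt. An exon of Hadha overlaps one of Garem2, and 2 pseudogenes match Hadhb and 1 matches Acadm at 90% identity or more.

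**Figure D3:**
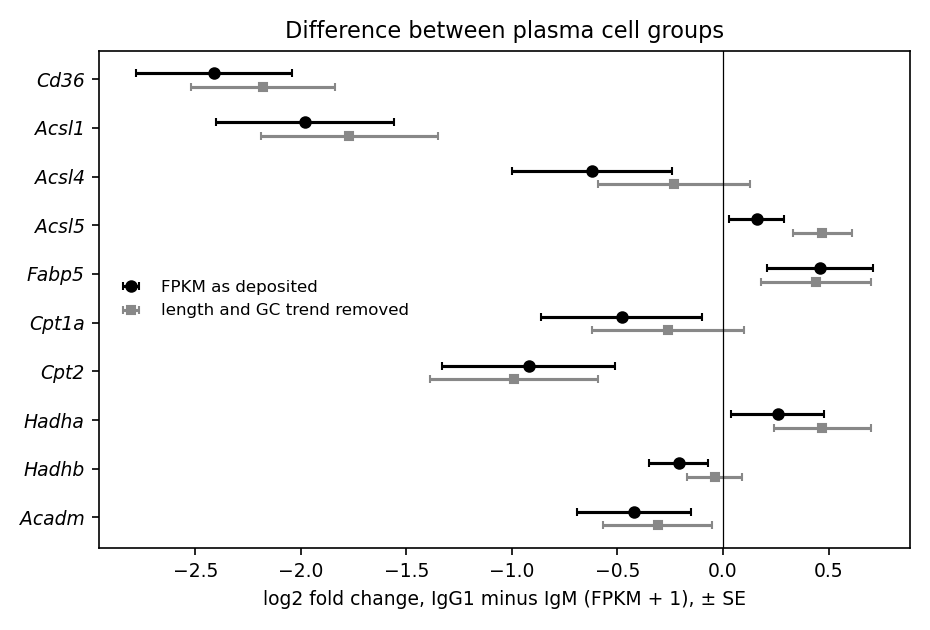
log2 fold change of FPKM + 1, IgG1 minus IgM (x axis), for each gene (y axis), as mean difference ± SE over 3 libraries per group, from FPKM as deposited (black circles) and with length and GC trend removed (grey squares). Cd36 and Acsl1 lie near -2 under both, and the other 8 genes lie between -0.99 and 0.47.

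Ordered by mean FPKM, IgM cells had Hadhb (120), Acsl5 (95.7), Fabp5 (43.5), Hadha (39.6), Cd36 (25.3), Acadm (19.6), Cpt2 (17.4), Cpt1a (7.95), Acsl4 (6.14) and Acsl1 (3.13). Cd36 thus stood the fifth in IgM cells, where its lowest library (22.1) was above the highest of Acadm (21.1) and below that of Cpt2 (22.4). In IgG1 cells it was the eighth, between Cpt1a (5.43) and Acsl4 (3.62), and overlapped both. The other genes kept their relative order in IgG1, apart from Acsl5 (107) and Hadhb (104), which overlapped and changed places.

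The rest of the fatty acid pathway was read from 97 further genes in 6 lists arranged by role. Of these 63 were tested, and 1 rose and 0 fell in IgG1 at adjusted p under 0.05 with limma, beside 4.26% of genes tested that were higher and 1.76% that were lower. At unadjusted p under 0.05 there were 8 of the 63, beside 22.2% of all genes tested. Their median log2 fold change was 0.02 and 30 of 63 were negative. The groups did not overlap for 8 higher and 4 lower genes of the 63, beside 13.7% and 13.5% of all genes tested.

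The gene that rose was Etfb, the beta subunit of the flavoprotein that takes electrons from the acyl-CoA dehydrogenases. Etfb was at 259, 312 and 307 FPKM in IgM libraries and at 439, 422 and 491 in IgG1 libraries 1 to 3, with no overlap (log2 fold change 0.62, SE 0.12, limma adjusted p = 0.0133). The adjusted p was 0.0725 without IgM library 1 and 0.0508 without IgG1 library 3, where the log2 fold change was 0.54 and 0.56, and it was 0.0449 without IgG1 library 2 (0.67). With the length and GC trend removed the Etfb difference was 0.31 (adjusted p = 0.108), and over all alternatives the adjusted p ran from 0.00905 to 0.176. Its annotated transcript is short, at 893 nt, and overlaps the predicted coding gene Gm45233. Its partner genes had values in the other direction, although neither passed the test. Etfa, the alpha subunit, was at 110 ± 13.1 in IgM and 89.9 ± 7.79 in IgG1 (adjusted p = 0.278). Etfdh, the oxidoreductase that passes the electrons to ubiquinone, was at 36.1, 31.9 and 39.4 in IgM libraries and at 23.5, 6.41 and 24.8 in IgG1 libraries (adjusted p = 0.121).

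In the mitochondrial beta-oxidation list 1 of 17 tested genes, Etfb, was called, and 4 were negative (median 0.26). At unadjusted p under 0.05 in limma's fit there were 4 of the 17, beside 22.2% of all genes tested. The groups did not overlap for 5 higher and 2 lower genes of the 17, beside 13.7% and 13.5% of all genes tested. Of the other lists none had a call in limma's fit. Uptake and activation had 7 of 22 genes tested, a median of -0.25 and 0 genes at unadjusted p under 0.05. Its most abundant were Dbi, the acyl-CoA binding protein (402 ± 55.6 in IgM, 470 ± 41 in IgG1), and Got2, a mitochondrial aminotransferase also described at the plasma membrane as a fatty acid binding protein (310 ± 18.2 and 383 ± 85.1). The fatty acid transporter genes Slc27a5 and Slc27a6 and the binding protein genes Fabp1 and Fabp2 were listed at 0 in all libraries.

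The carnitine list had 3 of 7 genes tested (median -0.07, 0 at unadjusted p under 0.05), with the malonyl-CoA decarboxylase gene Mlycd at 15.1 ± 4.68 in IgM and 14 ± 7.18 in IgG1 and the carnitine acetyltransferase gene Crat at 13.1 ± 0.571 and 14.1 ± 8.56. Peroxisomal oxidation had 17 of 19 tested (median -0.02, 2 at unadjusted p under 0.05). Its most abundant were the trans-2-enoyl-CoA reductase gene Pecr (132 ± 6.43 and 122 ± 16.2) and the thiolase gene Acaa1a (51.1 ± 9.14 and 64.2 ± 5.58). Lipid droplet and lipolysis genes had 10 of 12 tested (median -0.38, 0 at unadjusted p under 0.05), with the droplet coat gene Plin3 at 51.9 ± 2.52 and 52.9 ± 1.22 and the triglyceride lipase gene Pnpla2 at 29.3 ± 4.83 and 23.6 ± 13.4.

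Among regulators 9 of 18 were tested (median 0.19, 2 at unadjusted p under 0.05). Ucp2, an inner mitochondrial membrane carrier, was at 586, 719 and 582 FPKM in IgM libraries and at 763, 796 and 955 in IgG1 libraries. The groups did not overlap (log2 fold change 0.41, SE 0.12), but limma's adjusted p was 0.0733. It was 0.0241 with the length and GC trend removed and 0.042 without IgM library 2. Prkag1, a regulatory subunit of the energy sensor AMPK, was at 65.2 ± 11.7 and 73.9 ± 6.9. Transcripts of the fatty acid-sensing receptors were scarce, with Ppara at most 0.00842, Pparg at most 0.0373 and Ppard at most 2.35 FPKM in any library, and none of the 3 was tested.

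**Figure D4:**
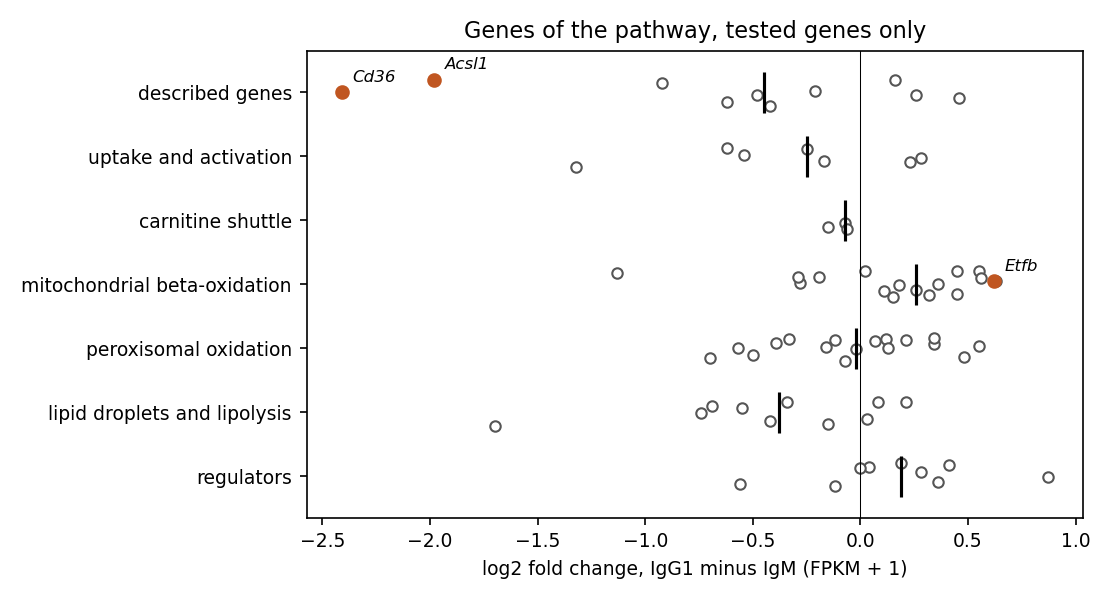
log2 fold change of FPKM + 1, IgG1 minus IgM (x axis), of each tested gene in the 10 described genes and in 6 lists of other pathway genes (y axis). Orange points passed an adjusted p of 0.05 in limma's fit over all genes, and vertical bars are medians. Besides Cd36 and Acsl1, Etfb at 0.62 is the orange point. The colour of Cd36 and Acsl1 is a description, since both were chosen with the difference known.

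Because other cells of the spleen carry CD36, markers of those cells were read in the same libraries. Of 12 macrophage and monocyte markers 6 were tested, 0 passed the adjusted threshold in limma's fit, 3 had an unadjusted p under 0.05, beside 22.2% of all genes tested, and 5 were negative. Summed over the list, FPKM ran from 73 to 82.9 across IgM and from 48.4 to 56.9 across IgG1 libraries, lower in each IgG1 library. Most of that sum was Cd68, at 56.1, 58.8 and 58.5 in IgM libraries and at 39.6, 40.9 and 34.2 in IgG1 libraries. The receptor gene Csf1r was at 2.14, 1.11 and 1.56 in IgM libraries and at 0, 0 and 0.0162 in IgG1 libraries. Adgre1, which encodes the macrophage antigen F4/80, was at most 0.0171 and Cd5l was listed at 0 in all libraries. C1qb was at 3.38, 3.02 and 1.74 in IgM libraries and at 1.07, 2.54 and 9.06 in IgG1 libraries, overlapping. Of the 6 tested, 2 (Cd68 and Csf1r) were lower without overlap, beside 13.5% of all genes tested, and 0 were higher. The others, Lyz2, C1qb, C1qc and Mrc1, overlapped, so the lower sum mainly reflects Cd68.

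Of 10 mature B cell markers 5 were tested, 0 passed the adjusted threshold in limma's fit and 1 had an unadjusted p under 0.05. Their sum ran from 163 to 185 across IgM and from 117 to 157 across IgG1 libraries. The marginal zone marker Cd1d1 was at 25.3, 19.2 and 28.3 in IgM libraries and at 10.9, 17.9 and 0.0377 in IgG1 libraries. Its groups did not overlap (log2 fold change -2.02, SE 0.81, limma adjusted p = 0.167), with IgG1 library 3 the lowest. Of the 5 tested, 2 were lower without overlap, beside 13.5% of all genes tested, and 0 were higher. Cr2, which encodes CD21, was at most 0.985 and S1pr3 at most 0.0134. The part of macrophage or B cell transcripts in the Cd36 difference was not tested.

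The remaining marker sums were lower, at most 21.8 in any library. Platelet and megakaryocyte markers summed to 2.44 to 3.64 in IgM and 2.73 to 3.45 in IgG1 libraries, with Pf4 and Ppbp listed at 0 throughout. Endothelial markers summed to 3.22 to 8.02 and 9.28 to 21.8, higher in each IgG1 library, whereas Cd36 was lower. Nearly all of that sum was Egfl7 (log2 fold change 1.29, SE 0.41), and Cdh5 was at most 0.425. Erythroid markers summed to 0.618 to 2.56 and 0.914 to 2.8, dendritic cell markers to 1.21 to 2.41 and 1.31 to 4.2, and T cell markers to 0.489 to 2.69 and 1.13 to 4.44. In each of these lists 1 marker was tested and 0 passed the adjusted threshold in limma's fit, with 1 at unadjusted p under 0.05, Egfl7.

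**Figure D5:**
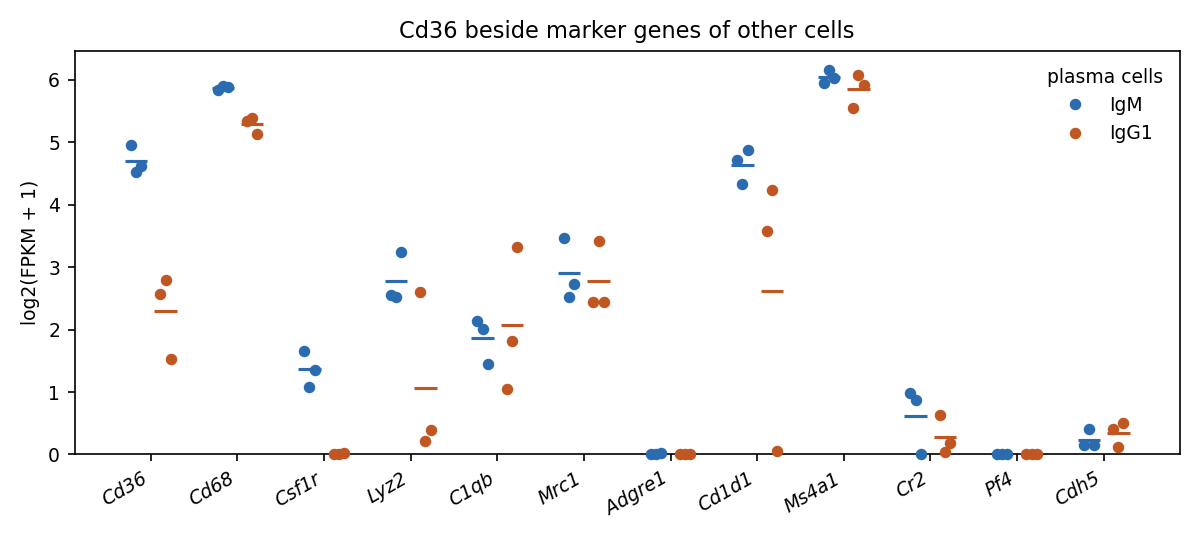
log2(FPKM + 1) of Cd36 and of markers of macrophages (Cd68, Csf1r, Lyz2, C1qb, Mrc1, Adgre1), B cells (Cd1d1, Ms4a1, Cr2), platelets (Pf4) and endothelium (Cdh5) in each IgM (blue) and IgG1 (orange) library, with group means as bars. Cd36, Cd68, Csf1r and Cd1d1 are lower in all IgG1 libraries, while Lyz2, Mrc1, C1qb and Ms4a1 overlap and Adgre1 and Pf4 are near 0.

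Ranked by the Pearson correlation of log2(FPKM + 1) with Cd36 over the 6 libraries, the 5 most alike genes were Ikzf3, Prnp, Zcchc18, Cd53 and Cry1 (r = 0.997, 0.995, 0.994, 0.994 and 0.993). The libraries fall into the 2 groups, so these values mainly restate that each gene was lower in IgG1. Ikzf3, which encodes the lymphoid transcription factor Aiolos, was at 42.1, 34.3 and 39.3 FPKM in IgM libraries and at 16.8, 19.9 and 11.3 in IgG1 libraries, lowest in IgG1 library 3 as Cd36 was. The log2 fold changes of the 5 ranged from -1.25 for Ikzf3 to -0.4 for Cd53, all smaller than that of Cd36. Acsl1 had r = 0.916, Acsl4 0.857 and Acsl5 -0.935 with Cd36.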

How the data were processed

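RNA of sorted plasma cells was purified with a small-input column kit, copied to full-length cDNA with the SMART-Seq HT kit and made into libraries with Nextera XT, per the labels' protocols. The deposited values were FPKM, per the file headers, 1 per gene symbol and library. Per the submitters' processing notes, the build was mm10 and the tools were Cufflinks 2.2.1, Cuffdiff, Bowtie2 2.3.5.1 and TopHat2 2.1.1. Annotation, use of strand and between-library scaling: not given in the sources used here.

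FPKM were used as deposited. The 9087 genes that reached an FPKM of 1 in 3 or more libraries were tested on log2(FPKM + 1) with limma 3.58.1 in R 4.3.3 (lmFit and trended eBayes). Benjamini-Hochberg adjustment ran over all of them, with 0.05 as threshold. The procedure was tested on simulated data. No label ties the libraries to separate animals, and the spread behind each p-value may thus be technical in part. Isotype was taken from the labels and not checked.

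The members, lists and tests were chosen with earlier results of these data known. Named pathway genes were up to 4 per direction past the threshold in a list or, with none, the 2 with the highest mean. Etfa, Etfdh, Acsl3, Acsl6, the listed genes at 0 and the PPAR genes are outside this rule and were picked once their values had been seen, as were the markers named singly.

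Lengths, GC content, overlaps and coordinates are from GENCODE vM21 (GRCm38), with a length for 96.5% of tested genes and for all 10 members. The trend correction fitted natural splines of 4 degrees of freedom in length and GC to each library's deviations from the gene means. Windows before gene starts are from RefSeq and were found for 9 of the 10 genes, all but Fabp5. Depth was estimated from the step at which low FPKM times length piled up, is approximate and covers counting only.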

Additional observations from a re-analysis of the deposited data

How the results depend on the processing

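There were 18 alternatives, and every one tried kept Cd36, Acsl1, Acsl4, Cpt1a, Cpt2, Hadhb and Acadm lower and Fabp5 and Hadha higher in IgG1. The Cd36 log2 fold change ran from -2.68 to -1.73 and that of Acsl1 from -4.56 to -0.69, given as a description, and a filter at FPKM 5 left Acsl1 out. Counts of the 10 genes past the threshold, 2 in the report, are a description as well. They were 0 without the filter, 1 (Cd36) with the filter at FPKM 5, 1 (Cd36) after quantile normalization and 1 (Acsl1) without the intensity trend. Cd36 was thus not past the threshold without the filter or without the intensity trend. When 1 library was left out they were 1 to 2. For the other pathway genes, 1 higher became 0 without the filter and 0 without the intensity trend and 0 to 2 with 1 library left out, and 0 lower became 1 when rescaled without Jchain.

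Over all genes 387 were higher and 160 lower. They were 2 and 4 without the filter, 3 and 5 without the intensity trend, 188 and 200 after quantile normalization, 177 and 394 when rescaled without Jchain, 489 and 118 after median centring, 179 and 81 with length and GC trend removed, and 78 to 394 and 30 to 251 with 1 library left out. The median of all genes, -0.05, became -0.25 when rescaled without Jchain. Before rescaling, FPKM summed over all genes ran from 730695 to 806599 in IgM and from 855123 to 914019 in IgG1 libraries. Rescaling to the same sum thus lowered IgG1 values relative to IgM values. Directions turned for Acsl5 (-0.07), Plin3 (-0.2) and Prkag1 (-0.04) when rescaled without Jchain, for Plin3 (-0.03) after quantile normalization, and for Dbi (-0.08) with the trend removed. Crat turned to 0.01 after median centring, 0.02 after quantile normalization, 0.14 with array weights and 0.03 with the trend removed. With 1 library left out Crat ran from -0.49 to 0.37 and Mlycd from -0.52 to 0.11. Why the sums differed between the groups, and the cause of the other changes, was not tested.

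Correlations of same-numbered deviations were 0.1, -0.03 and 0, and those of all IgM and IgG1 pairs ran from -0.1 to 0.1. With deviations from means of 3 libraries, this cannot show whether same-numbered libraries were paired, and the labels do not say. With the replicate number as a block 432 genes were higher and 154 lower, and the counts of 2 members and of 1 and 0 pathway genes were as without it. Acsl1 in IgG1 rests on 0 to 3 estimated fragments a library. The larger number of genes listed at 0 in IgG1 libraries 2 and 3 came at nearly the same estimated depth as in IgG1 library 1, and its cause was not tested.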
